A study of Glycine max with 8 samples.

Results

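Leaves of soybean seedlings (Glycine max cv. Daepoong) that had recovered from a drought were compared with leaves that had never been stressed. Recovered leaves, WT2, came from seedlings grown for 7 days, left without water for 4 days and then watered again for 1 day. Never-stressed leaves, WT1, came from seedlings that kept their water and were taken with the drought leaves, so that WT2 plants were also 1 day older. The comparison rests on 4 of the 8 arrays of the series, WT2_1 and WT2_2 against WT1_1 and WT1_2, chosen by their labels. The other arrays are 2 of leaves at the end of the first drought, DR1, and 2 after a second drought of 4 days, DR2. No genotype, transgene or chemical differed between the groups, all plants were of this cultivar, and every array held RNA from the primary leaves of 1 of 2 independent experiments. One label gives the first drought in hours where the protocol gives days, and the days were used. Both WT2 arrays were on 1 slide with the DR2 arrays and both WT1 arrays were on the other slide, so slide and recovery cannot be told apart in any difference given here. The plate of seedlings cannot be told apart from recovery either, since WT2 leaves came from the plate that had been dried and WT1 leaves from the watered one.

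A leaf that loses water accumulates abscisic acid, closes its stomata and switches on protective genes, among them dehydrins, late embryogenesis abundant (LEA) proteins, heat shock proteins and enzymes of raffinose synthesis. Genes of photosynthesis and growth are repressed at the same time. When water returns, abscisic acid falls, the protective transcripts are lost and the leaf rebuilds ribosomes, chloroplast proteins and cell walls. Levels are given as log2 of the normalized intensity, so that a difference of 1 is a 2-fold change. Levels of different transcripts cannot be set against each other on this scale, since each probe binds its target with its own strength. Fewer cells of a type and less RNA per cell cannot be told apart in RNA from whole leaves.

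The 4 arrays were alike in signal. Their median spot signal lay between 142.5 and 159.5 units at WT2 and between 119 and 131 units at WT1, against local backgrounds of 31 to 33 units, and between 61.4% and 65.2% of probes were well above background. Leaf identity was checked with 17 transcripts of chlorophyll a/b-binding proteins and the small subunit of RuBisCO, the enzyme that fixes CO2. All 17 were well above background at WT2 and at WT1, and their summed intensities were 1350358 and 1357000 on the WT2 arrays and 1540768 and 1467285 on the WT1 arrays. The transcript table held 60386 transcripts, of which 54851 were tested because a condition's 2 arrays both read at least 1 of its probes as well above background. They include 4854 unique-exon entries, which read 1 splice form of a gene.

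Both WT2 arrays had the WT1 level for most transcripts. The median difference from the WT1 mean was -0.05 on WT2_1 and -0.05 on WT2_2. On WT2_1, 3118 transcripts were over 2-fold higher than the WT1 mean and 1418 were over 2-fold lower. On WT2_2, these counts were 4174 and 2927. The array pair WT2_1 and WT2_2 had a Pearson correlation of 0.973 across transcripts and the WT1 pair one of 0.988, which describe the arrays only, since transcripts are not replicates. The median SD of a transcript between arrays was 0.252 at WT2 and 0.175 at WT1 (n = 2 arrays each). It was 0.258 at DR2, on the slide of WT2, and 0.092 at DR1, on the slide of WT1. The wider spread at WT2 than at WT1 therefore cannot be told apart from the slide. Over 2-fold higher on both WT2 arrays were 1783 transcripts, 3.25% of those tested, and over 2-fold lower on both were 574, or 1.05%.

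The WT2 arrays stood at different distances from the drought arrays. WT2_1 correlated with the DR1 arrays at 0.929 and 0.936, whereas WT2_2 correlated with them at 0.869 and 0.873. Across transcripts, the difference between WT2_1 and WT2_2 correlated with the difference between the DR1 and WT1 means at r = 0.54, and these differences share no array. A tail of 294 transcripts was over 4-fold above the WT1 mean on WT2_1 and within 2-fold of it on WT2_2, and 0 of the 294 were called by the test. The opposite tail, over 4-fold higher on WT2_2 only, held 97 transcripts, of which 0 were called. Both tails were picked for WT2 arrays that differ, which widens the spread used by the test. The lack of calls in them thus follows largely from how they were picked.

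**Figure D1:**
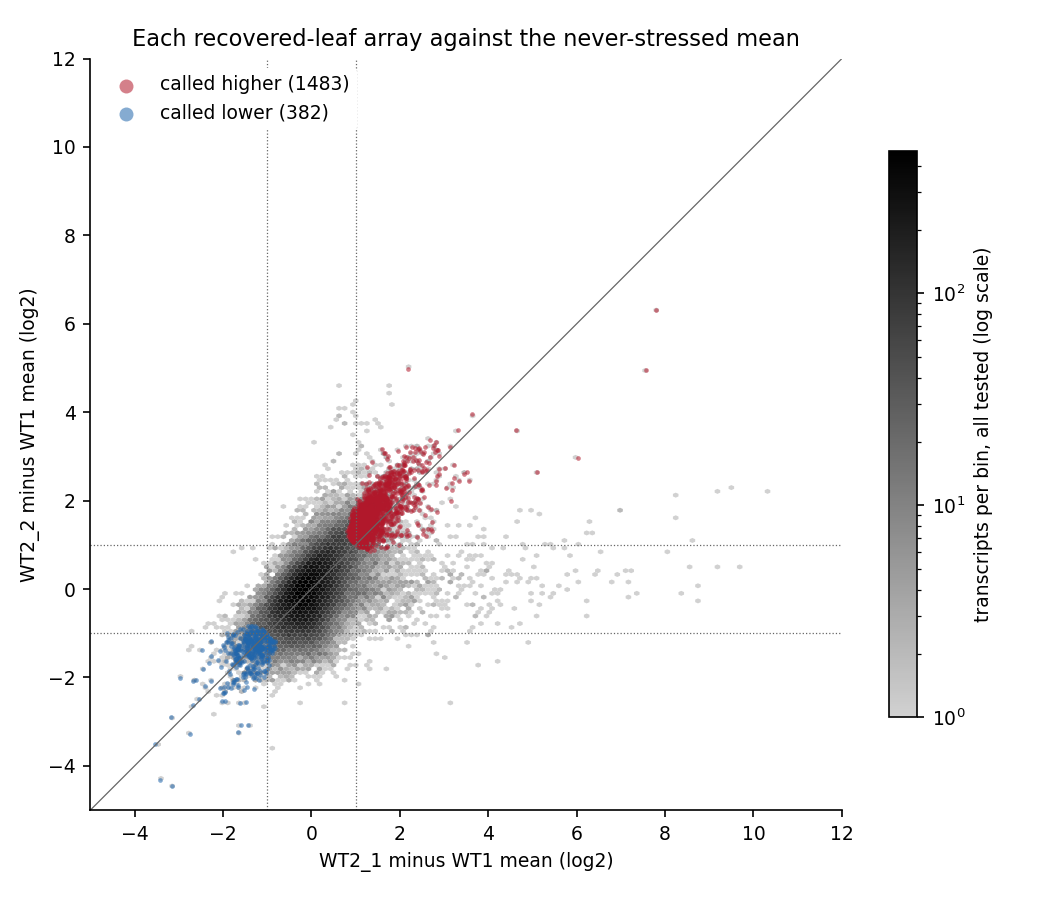
Difference of WT2_1 (horizontal axis) and WT2_2 (vertical axis) from the mean of the WT1 arrays, in log2 units, for 54851 transcripts. Grey hexagons count all transcripts tested, red and blue points are the 1483 transcripts called higher and the 382 called lower, dotted lines mark 2-fold and the diagonal marks equal values. The test favours transcripts with a small spread between arrays, so those called tend to lie toward the diagonal by selection, and some lie off it. A sparse grey tail runs along the horizontal axis where WT2_1 alone was high.

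The transcripts of the WT2_1 tail named here were chosen after their values were seen. Glyma.17G164200-1, which has no annotation in the tables used, had 13.95 on WT2_1 and 4.77 on WT2_2, against 4.46 and 4.12 on the WT1 arrays. Its DR1 levels were 16.67 and 16.41. Outside that tail, Glyma.09G185500-1 had the highest difference of any transcript on an array, with 16.80 on WT2_1, and it was also over 4-fold up on WT2_2 at 8.65, against 5.92 and 7.04 at WT1 (adjusted P = 0.147). Raffinose synthase Glyma.19G217700-1, an enzyme that makes a protective sugar, had 13.78 on WT2_1 and 9.53 on WT2_2, against 9.40 and 9.61 at WT1. Its DR1 levels were 16.24 and 16.36. The tail was 0.536% of all transcripts tested and 4.29% of the 3935 with a Pfam name (169 transcripts), a set mostly selected for a change at DR1. Of the families with most members in the tail, it held 9 of 39 protein phosphatases 2C, a family with negative regulators of abscisic acid signalling, 7 of 31 small heat shock proteins, 4 of 55 AP2 factors, 4 of 9 PDDEXK_6 proteins and 4 of 6 oleosins, which coat oil bodies. Of 122 protein kinases (Pkinase) it held 3.

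Only 11 of the 97 transcripts in the WT2_2 tail have a Pfam name, and those named here were also picked by their values. Glyma.15G062700-1, a CAP protein of the family that holds pathogenesis-related protein 1, had 9.91 on WT2_1 and 13.43 on WT2_2, against 9.76 and 8.91 at WT1. Glyma.13G251700-1, another CAP protein, had 8.01 and 11.24 at WT2 against 7.74 and 7.09 at WT1. A chitinase of glycosyl hydrolase family 18, Glyma.09G126200-1, had 8.35 on WT2_1 and 10.23 on WT2_2, against 7.43 and 7.77 at WT1. On WT2_1 these 3 transcripts were within 2-fold of the WT1 mean.

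A transcript was called when limma, fitted over all 8 arrays, gave an adjusted P below 0.05 and the WT2 mean was over 2-fold from the WT1 mean. By this rule 1483 transcripts were higher at WT2, 2.7% of the 54851 tested, and 382 were lower, 0.696%. Over 4-fold, 226 were higher (0.412%) and 29 lower (0.0529%). The calls fell on 1361 loci with higher and 362 loci with lower transcripts. For all of the 1483 both WT2 arrays were above both WT1 arrays, as was true of 22.7% of all transcripts tested, and for all of the 382 they were below, as for 27.6%. Of the transcripts called higher, 1307 were over 2-fold up on each WT2 array, and of those called lower 312 were over 2-fold down on each. Of the 1483, 112 were not well above background on any WT1 array. Only 58 of these were over 2-fold higher with WT1 set no lower than the lowest signal well above background. Of the 382, 16 were not well above background on any WT2 array, and 13 of these were over 2-fold lower by the same bound. WT2_1 exceeded WT2_2 for 295 of the 1483 and for 198 of the 382, beside 25189 of all 54851. The calls depended on the WT1 arrays, since without WT1_1 or without WT1_2 limma called 0 transcripts in either direction, with smallest adjusted P values of 0.164 and 0.0821. At an unadjusted P below 0.05 and over 2-fold, 2622 and 2826 transcripts were higher in these 2 fits and 1277 and 1489 were lower. Leaving out WT2_2 gave 574 higher and 60 lower calls over 2-fold, leaving out either DR1 array 98 and 10, and leaving out either DR2 array 2127 and 770. Over 4-fold, 400 and 56 were called without WT2_1 and 391 and 14 without WT2_2. A condition left with 1 array was taken to vary like the others.

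The order of the changes below follows the fitted difference, which is exact only where both conditions were above background, so that those given as bounds have no set rank and 1 of them, Glyma.09G260500-1, has a bound below the other rises. Among the 12 largest rises by this order, only 1 transcript has a Pfam name in the annotation used, and the rest are given by identifier alone. The digits after "Glyma." name the chromosome. Glyma.14G063800-1 had 12.27 and 10.80 on the WT2 arrays, against 4.51 and 4.47 on the WT1 arrays, where its probes were not well above background. It was at least 99.2-fold higher at WT2 (adjusted P = 0.00749), taking the lowest signal well above background as the WT1 level. Its neighbour by number, Glyma.14G063700-1, had 9.82 and 6.77 at WT2 against 3.83 and 3.75 at WT1, at least 10.5-fold higher (adjusted P = 0.027). Glyma.18G231500-1 had 11.38 and 8.75 at WT2 against 4.24 and 3.35 at WT1 and was at least 35.8-fold higher (adjusted P = 0.015). Glyma.09G260500-1 had 7.96 and 5.50 at WT2 against 3.61 and 2.12 at WT1 and was at least 3.55-fold higher (adjusted P = 0.038).

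These 4 transcripts were not well above background on either WT1 array, and in each of them WT2_1 was the higher recovered array by more than 2-fold. All 4 were higher still at DR1, with levels of 14.26 and 14.56 for Glyma.14G063800-1 and of 14.35 and 13.78 for Glyma.18G231500-1. DR1 minus WT1 and WT2 minus WT1 share the WT1 arrays, so the 2 differences are given side by side only.

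A second set of rises was measurable at WT1 and was nearly equal on both WT2 arrays. Glyma.02G120300-1 had 10.54 and 10.86 at WT2 against 6.69 and 7.12 at WT1, a difference of 3.80 (SE 0.66, adjusted P = 0.026). Its DR1 levels were 6.50 and 6.77. Glyma.01G062100-1 had 10.74 and 11.01 at WT2 against 7.32 and 7.51 at WT1, and 6.86 and 7.16 at DR1. Glyma.07G137100-1 had 10.44 and 10.50 at WT2 against 6.86 and 7.74 at WT1, and 7.64 and 7.99 at DR1. In these 3 transcripts both DR1 arrays were within 2-fold of the WT1 mean and both WT2 arrays were above every DR1 and WT1 array.

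The other large rises had raised levels at DR1 as well. Glyma.09G163900-1, a Kunitz-type inhibitor of proteases, had 12.02 and 11.18 at WT2 against 8.23 and 8.93 at WT1, a difference of 3.02 (SE 0.36, adjusted P = 0.016), and 14.24 and 14.34 at DR1. Glyma.20G204500-1 had 10.62 and 9.60 at WT2 against 6.12 and 5.87 at WT1, Glyma.11G155000-1 had 9.48 and 10.18 against 6.92 and 6.70, and Glyma.10G193200-1 had 11.92 and 12.42 against 8.87 and 9.33. Their differences were 4.11, 3.02 and 3.07. Glyma.18G052600-1 was the only one of the 12 with WT2_2 more than 2-fold above WT2_1, at 8.20 on WT2_1 and 11.00 on WT2_2 against 6.04 and 5.99 at WT1 (difference 3.58, SE 0.77, adjusted P = 0.048).

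Of the 12 largest falls by the fitted difference, 6 have a Pfam name. The largest was Glyma.19G223000-1, without one, at 9.98 and 9.09 on the WT2 arrays against 13.78 and 13.04 on the WT1 arrays (difference -3.88, SE 0.37, adjusted P = 0.010), and 12.45 and 11.94 at DR1. Glyma.10G122000-1 had 7.54 and 6.24 at WT2 against 11.35 and 10.04 at WT1, and Glyma.03G226000-1 had 7.86 and 7.34 against 11.28 and 9.94. At DR1 the last of these had 11.07 and 10.04, the WT1 range. Glyma.17G020600-1 had 12.38 and 10.92 at WT2 against 13.81 and 14.17 at WT1, and Glyma.06G252400-1 had 10.09 and 8.51 against 11.58 and 11.94. Both had DR1 levels within 2-fold of the WT1 mean. In all 5 of these transcripts each WT2 array was below every DR1 and WT1 array.

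The falls with a Pfam name were low at DR1 too, and names were at hand mainly for transcripts selected for a change there. Glyma.15G031400-1, a family 1 glycosyl hydrolase whose closest Arabidopsis gene is the beta-glucosidase BGLU15, had 8.92 and 9.47 at WT2 against 11.78 and 11.29 at WT1, a difference of -2.34 (SE 0.37, adjusted P = 0.022). Its DR1 levels were 6.60 and 6.71, below those of the recovered leaves. Glyma.02G061300-1, a WCOR413 membrane protein of a family known from cold-treated cereals, had 4.98 and 5.03 at WT2 against 7.77 and 7.55 at WT1. The other 4 were not well above background on either WT2 array. Among them, the Retrotran_gag_2 transcript Glyma.01G107400-1 had 4.25 and 4.26 at WT2 against 8.29 and 7.27 at WT1, at least 8.36-fold lower. Glyma.07G236800-1, with a Ferritin_2 domain, had 4.11 and 4.38 against 6.67 and 7.90 and was at least 5.92-fold lower. The papain-like protease Glyma.16G107200-1 was at least 4.20-fold lower and Glyma.05G057200-1, with a Hydrophob_seed domain, at least 3.71-fold lower. Glyma.06G050400-1, without a Pfam name, was at least 3.90-fold lower. Adjusted P for these 5 bounded falls lay between 0.010 and 0.0476. Of the 24 largest changes, 16 were called without WT2_1, 13 without WT2_2, 10 without either DR1 array and 0 without either WT1 array.

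**Figure D2:**
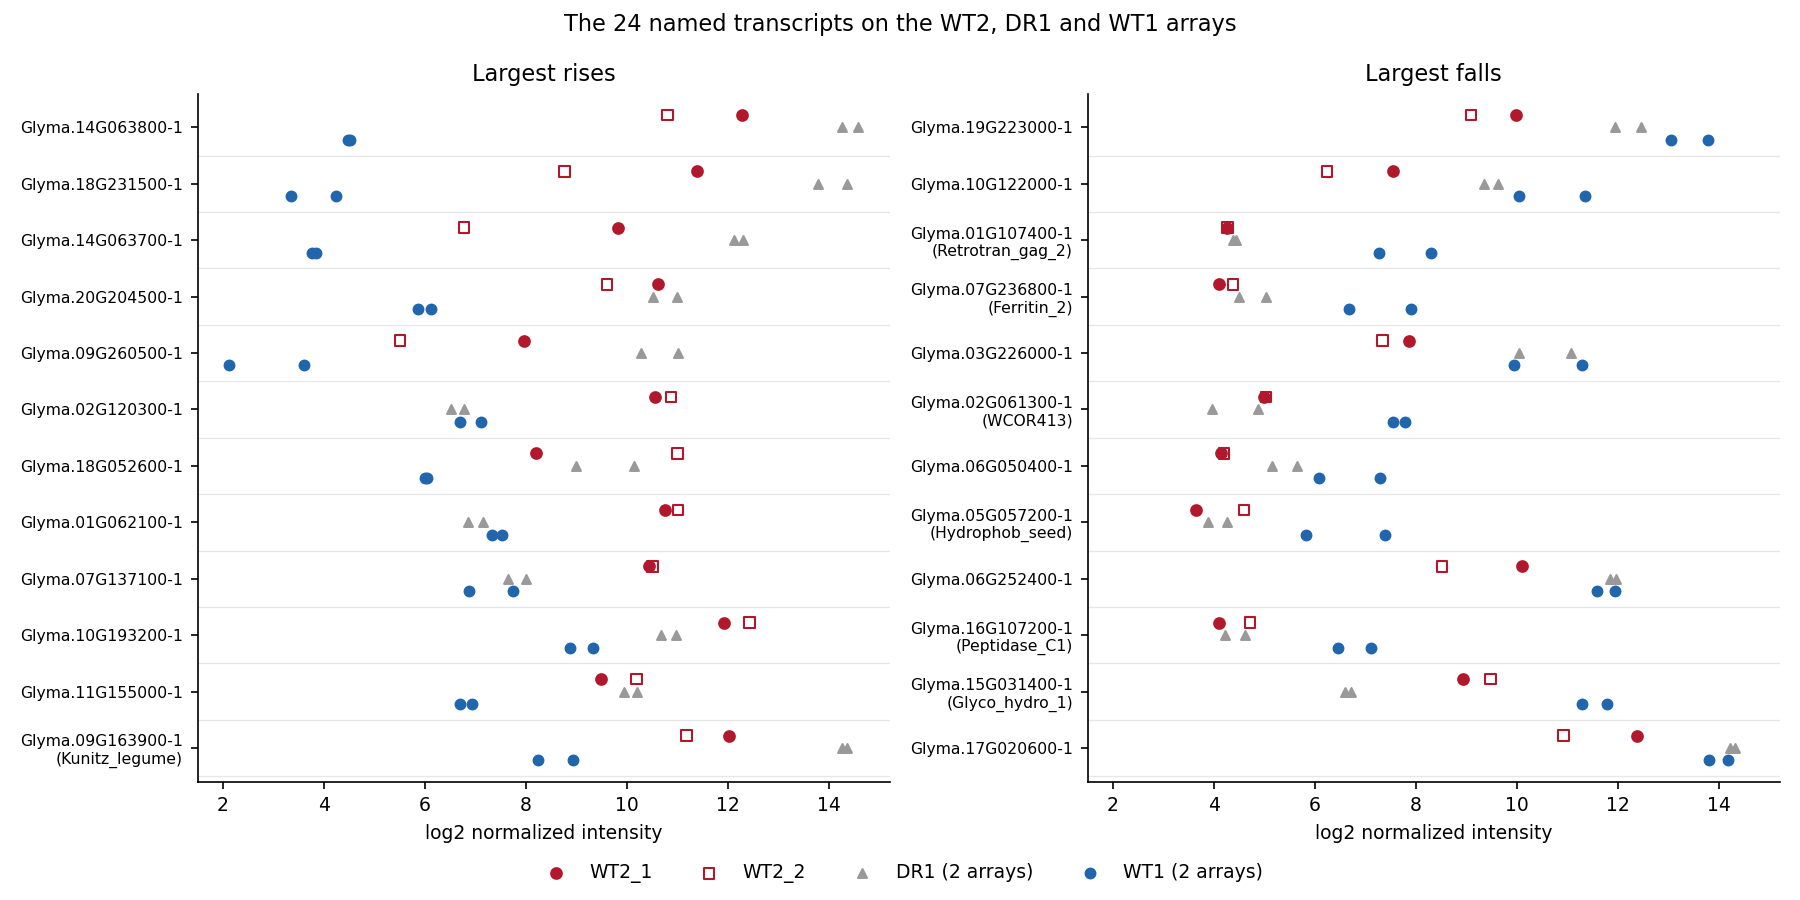
Log2 normalized intensity of the 12 largest rises and the 12 largest falls on every WT2, DR1 and WT1 array, 1 row per transcript. Red marks the WT2 arrays (filled, WT2_1 and open, WT2_2), grey triangles the DR1 arrays and blue the WT1 arrays. In every row the 2 red marks lie on the same side of both blue ones, which the rule that chose these transcripts favours. Of the 12 rises, 6 have WT2 arrays more than 2-fold apart.

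Gene lists were made from Pfam domain names, which were at hand for 3935 of the transcripts tested. Most of those names belong to transcripts that the study had selected for a change at DR1 on these WT1 arrays, so the lists are no independent sample of their families. Of the 3935, 142 were called higher at WT2 and 82 lower, with a median difference of 0.14, beside a median of -0.06 over all 54851. Each list below is described by its members called and by its median on each WT2 array, and carries no test of its own. Its counts of called members are to be read beside those over the 3935.

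Ribosomal proteins, which build the machinery of translation, had raised medians on both WT2 arrays. Of 25 tested, 8 rose and 0 fell, and the median difference was 0.68 on WT2_1 and 1.27 on WT2_2. Glyma.10G223400-1, with a Ribosomal_L3 domain, had 14.59 and 14.67 at WT2 against 12.61 and 13.08 at WT1 (difference 1.79, SE 0.24, adjusted P = 0.017). Glyma.19G085300-1, with a Ribosomal_L9_N domain, had 9.34 and 10.06 at WT2 against 7.82 and 7.55 at WT1 (difference 2.01, SE 0.33, adjusted P = 0.023). Glyma.02G307100-1 (Ribosomal_L18p) rose by 1.82 and Glyma.11G003700-1 (Ribosomal_S8) by 1.52. The WT2_2 value exceeded that of WT2_1 in all but 4 of the 25 members, and the DR1 minus WT1 median of the list was -0.04.

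Protein-folding helpers also had raised medians on both arrays. Of 11 transcripts of HSP70, HSP90 and chaperonin families tested, 5 rose and 0 fell, with medians of 1.73 on WT2_1 and 1.54 on WT2_2. All 3 Cpn10 transcripts, co-chaperonins of the chaperonin cages found in chloroplasts and mitochondria, rose. Glyma.13G112500-1 had 13.11 and 13.39 at WT2 against 11.14 and 11.45 at WT1 (difference 1.96, SE 0.23, adjusted P = 0.016), and the entries of Glyma.17G047200 rose by 1.85 and 2.11. DR1 minus WT1 was -2.16 for Glyma.13G112500-1 and -2.77 and -2.80 for the Glyma.17G047200 entries. HSP70 transcript Glyma.01G238600-1 rose by 2.26, with 10.39 and 9.49 at WT2 against 7.88 and 7.49 at WT1, and its DR1 minus WT1 was 4.68. The fifth call, named to complete the count, was HSP70 transcript Glyma.15G059900-1, which rose by 1.66. Of 5 HSP90 transcripts none passed the test, with mean differences between 1.46 and 1.64 for 4 of them and of -0.19 for Glyma.16G178800-2, named as the exception.

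Small heat shock proteins, which hold unfolded proteins in solution, had medians of 1.58 on WT2_1 and 0.81 on WT2_2 over 31 members, of which 2 rose and 0 fell. At an unadjusted P below 0.05 and over 2-fold, 18 of the 31 were higher and 0 lower. On WT2_1, 25 members were over 2-fold above the WT1 mean, and on WT2_2 12 were. Glyma.18G094600-1 had 13.80 and 13.28 at WT2 against 12.45 and 11.90 at WT1 (difference 1.36, SE 0.27, adjusted P = 0.039), and Glyma.08G318900-1 rose by 1.37. Members with a larger change on WT2_1 did not pass, such as Glyma.10G176400-1, picked by its values, with 8.89 on WT2_1 and 5.62 on WT2_2, against 4.65 and 4.28 at WT1, where it was not well above background (adjusted P = 0.119).

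Dehydrins and raffinose synthases, protectants of a drying leaf, had raised medians on WT2_1 and medians near the WT1 level on WT2_2. For 4 dehydrin and ABA/WDS transcripts the median was 1.89 on WT2_1 and -0.08 on WT2_2, for 5 raffinose synthases 2.31 and -0.12, and for 19 LEA proteins 0.64 and -0.33. Of the dehydrin and raffinose synthase transcripts limma called 0, and 0 and 1 had an unadjusted P below 0.05 with a rise over 2-fold. Dehydrin Glyma.04G009900-1 had 8.19 on WT2_1 and 4.81 on WT2_2, against 5.02 and 4.66 at WT1, where it was not well above background. Dehydrin Glyma.08G048900-1 had 7.99 and 4.64 at WT2, the second below both WT1 values of 5.56 and 5.31. Among LEA proteins, Glyma.18G238700-1 rose by 1.41, with 12.34 and 12.30 at WT2 against 10.60 and 11.22 at WT1, and Glyma.07G103900-1 fell, with 3.95 and 4.60 at WT2 against 6.35 and 6.20 at WT1. Both carry an LEA_2 domain. The 10 LEA transcripts with this domain were not raised at the median on either array, with -0.08 on WT2_1 and -0.29 on WT2_2. The 5 ferritins, which store iron, had medians of 2.01 on WT2_1 and 0.82 on WT2_2 and 0 calls, while 3 had an unadjusted P below 0.05 with a rise over 2-fold.

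Regulators differed in how far the WT2 arrays parted. Over 39 protein phosphatases 2C the median was 0.81 on WT2_1 and -0.03 on WT2_2, and 2 rose, Glyma.06G290200-1 by 1.67 and Glyma.12G116800-1 by 1.43. Both were high on each WT2 array, with 7.77 and 8.37 for Glyma.06G290200-1 at WT2 against 6.11 and 6.70 at WT1. NAC transcription factors had medians of 0.83 and -0.36 on WT2_1 and WT2_2 over 26 members, of which 0 were called and 0 had an unadjusted P below 0.05 with a change over 2-fold. AP2/ERF factors, the family of DREB and ethylene response factors, had medians of 0.94 and 0.15 over 55 members, and 4 were called higher. Of these, Glyma.17G194100-1 had 4.60 and 4.75 at WT2 and was not well above background on either WT1 array. Its bound was -0.23, so no rise is set for it. Glyma.02G080200-1 had 7.71 and 6.73 at WT2 against 5.33 and 5.70 at WT1, a difference of 1.71 (SE 0.37, adjusted P = 0.0485). Of 68 MYB factors, with medians of 0.05 and -0.10, 4 rose and 4 fell, with Glyma.06G031800-1 at 8.57 and 9.67 at WT2 against 11.35 and 10.75 at WT1 (difference -1.93, SE 0.39, adjusted P = 0.040). Of 17 WRKY factors, with medians of 0.73 and 0.25, 1 rose, Glyma.19G094100-1 by 1.43, and of 20 bZIP factors, with medians of 0.50 and -0.29, 0 were called, with 1 fall over 2-fold at an unadjusted P below 0.05.

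**Figure D3:**
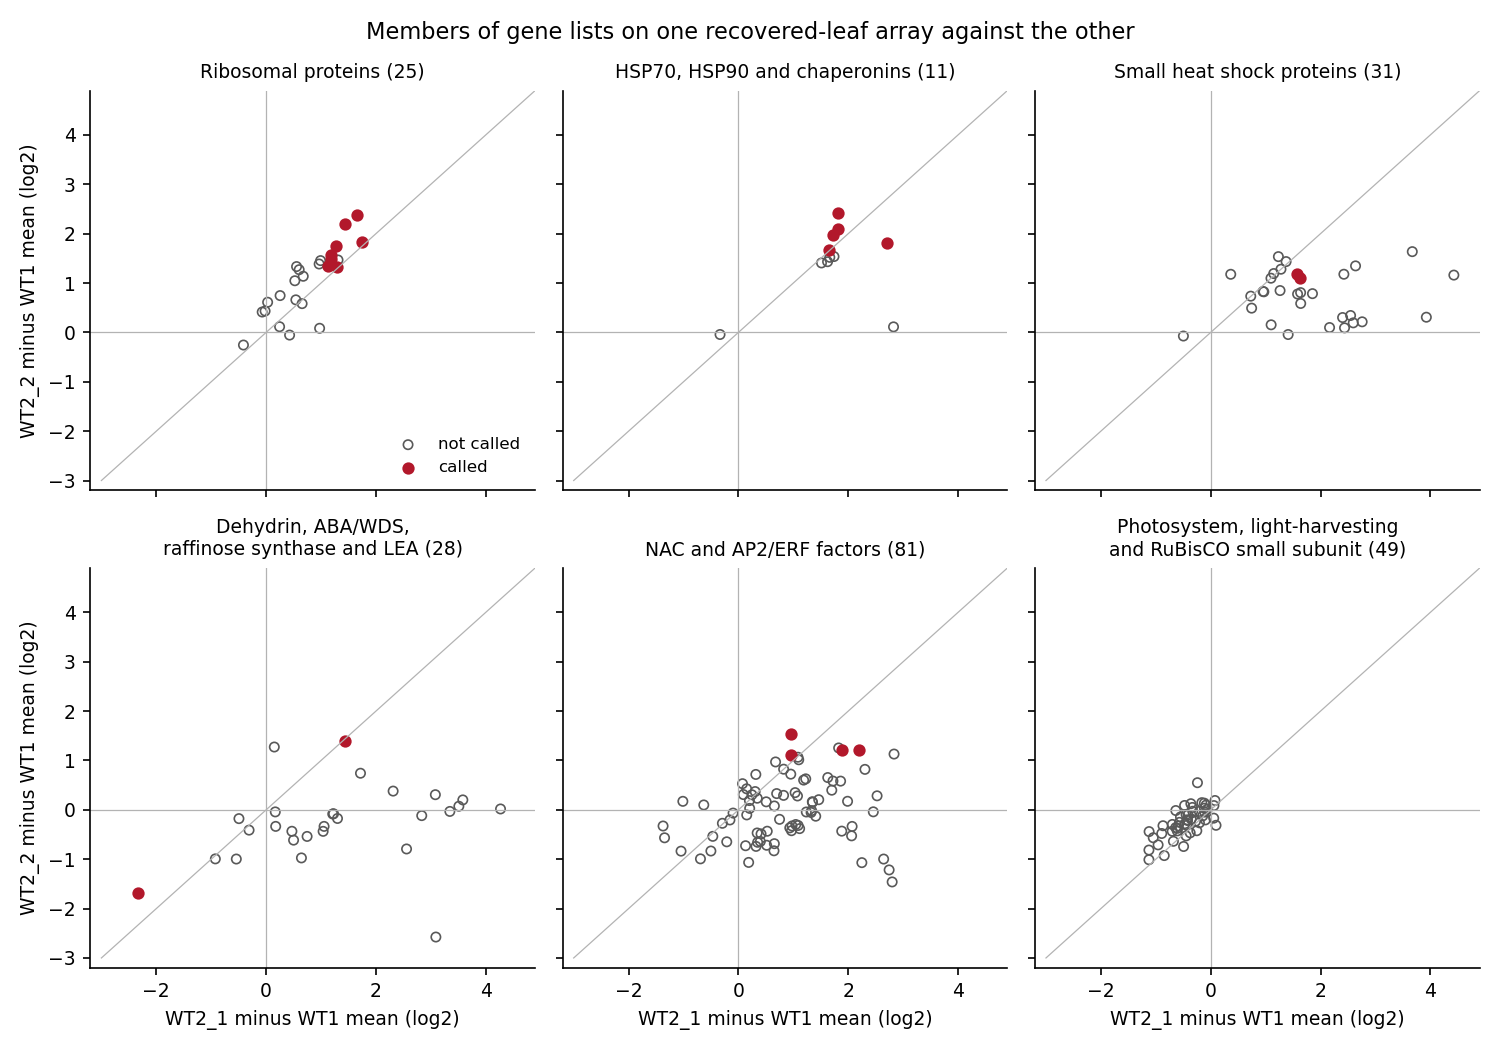
Difference of each list member from the WT1 mean on WT2_1 (horizontal axis) and on WT2_2 (vertical axis), in log2 units, with the number of members tested in brackets. Filled points were called, open points were not, and the diagonal marks equal values. Most ribosomal proteins lie above the diagonal, and chaperones lie on both sides of it. Dehydrin, raffinose synthase and LEA transcripts spread along the horizontal axis, and photosynthesis transcripts cluster at or just below 0.

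Photosynthesis transcripts were at or slightly below the WT1 level on both arrays. Of 32 photosystem and cytochrome subunits, 14 light-harvesting proteins and 3 RuBisCO small subunits 0 were called, and only 1 of them, a light-harvesting transcript, had an unadjusted P below 0.05 with a change over 2-fold. The photosystem median was -0.45 on WT2_1 and -0.18 on WT2_2, the light-harvesting median -0.32 and -0.22, and the RuBisCO median -0.70 and -0.43. Light-harvesting transcript Glyma.18G028400-1 had 13.17 and 13.29 at WT2 against 14.08 and 14.51 at WT1, a difference of -1.07 (SE 0.26) with adjusted P = 0.071. RuBisCO small-subunit transcript Glyma.18G296900-1 had 9.23 and 9.47 at WT2 against 10.22 and 10.15 at WT1 (difference -0.83, SE 0.24, adjusted P = 0.11). Of 9 transcripts of chlorophyll synthesis 0 were called, and their median was -0.09 on WT2_1 and -0.02 on WT2_2. Over 83 transcripts encoded in the chloroplast genome 0 were called and the median was -0.15, and over 58 of the mitochondrial genome 0 were called and the median was -0.16. At an unadjusted P below 0.05 and over 2-fold, 3 mitochondrial transcripts were higher and 0 lower, and 3 were over 2-fold higher on both WT2 arrays. The chloroplast genome had 0 of these.

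Some water channels and wall enzymes fell on both arrays. Of 23 aquaporins 3 fell and 0 rose. Glyma.01G208200-1 had 13.07 and 13.21 at WT2 against 14.91 and 14.66 at WT1 (difference -1.65, SE 0.21, adjusted P = 0.017), and Glyma.11G034000-1 and Glyma.12G075400-1 fell by 1.32 and 1.31. Their DR1 minus WT1 differences were -5.96, -5.14 and -3.30. Of 20 xyloglucan endotransglucosylase/hydrolases, which cut and rejoin wall polymers, 2 fell and 0 rose. Glyma.09G062600-1 had 13.51 and 13.28 at WT2 against 15.66 and 15.31 at WT1, a difference of -2.09 (SE 0.25, adjusted P = 0.016), and Glyma.05G109600-1 fell by 1.78.

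Expansins, which loosen walls during growth, included 1 rise and 0 falls among 20. Glyma.07G229000-1 had 12.33 and 13.22 at WT2 against 10.47 and 10.85 at WT1 (difference 2.12, SE 0.33, adjusted P = 0.021), while its DR1 minus WT1 difference was -2.94. Of 15 GASA peptides, which are induced by gibberellin, 1 rose, Glyma.10G259800-1 by 1.31. Of 19 kinesins and tubulins 1 rose, the tubulin Glyma.10G071800-1 by 1.02, with 11.47 and 11.62 at WT2 against 10.50 and 10.55 at WT1. Histones and cyclins, 13 and 4 members, had 0 calls, with medians of 0.48 and 0.40 on the mean of both arrays. Over all 3935 transcripts with a Pfam name 142 were called higher. Single calls in lists of this size are near that share and are no result about the families.

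Some members of the storage and nitrogen lists passed the test. The acid phosphatase B family, which holds the vegetative storage proteins of soybean leaves, had 3 rises and 0 falls among 7, and mean differences of -0.47 to 0.73 in the other 4. Glyma.07G014500-1 had 17.50 and 17.65 at WT2 against 14.90 and 15.08 at WT1 (difference 2.58, SE 0.31, adjusted P = 0.016), and Glyma.08G200100-1 had 16.43 and 16.51 against 13.74 and 13.91 (difference 2.65, SE 0.27, adjusted P = 0.011). Glyma.08G200000-1 rose by 2.05. These 3 were nearly equal on both WT2 arrays, and their DR1 minus WT1 differences were 2.73, 2.30 and 2.10. Asparagine synthetases, which load nitrogen onto asparagine for transport, had 2 falls among 5. Glyma.14G195000-1 had 13.21 and 13.30 at WT2 against 14.41 and 14.89 at WT1 (difference -1.39, SE 0.29, adjusted P = 0.045), and Glyma.02G228100-1 fell by 1.31. At DR1 both were lower still, by -5.66 and -4.84 from WT1. The other 3 were not called, and each was above the WT1 mean on WT2_1 and below it on WT2_2, so that the list medians were 0.40 and -0.67.

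Defence and secondary metabolism lists held calls in both directions. Of 3 lipoxygenases, which start the synthesis of jasmonates and other oxylipins, 1 rose and 2 fell. Glyma.13G030300-1 had 9.36 and 9.54 at WT2 against 7.56 and 7.66 at WT1, whereas Glyma.10G153900-1 had 11.02 and 11.23 against 12.30 and 12.48 and Glyma.20G234400-1 fell by 1.24. Of 9 Kunitz inhibitors 2 rose, the second being Glyma.16G212500-1 by 1.21. Of 6 PR-10 proteins and 6 chitinases 1 each rose, Glyma.15G145900-1 by 2.08 and Glyma.01G160100-1 by 2.10. Of 12 papain-like proteases 3 were called higher and 1 lower. Of those called higher, Glyma.10G207100-1 had 6.25 and 4.97 at WT2 and was not well above background on either WT1 array. Its bound was 0.71, so a 2-fold rise is not set for it. Glyma.06G174800-1 had 7.97 and 7.97 at WT2 against 6.95 and 6.10 at WT1. Terpene synthases had a median of -1.39 on WT2_1 and -0.64 on WT2_2 over 8 members, of which 1 fell, Glyma.03G154700-1 by 1.46. Phenylpropanoid enzymes, which make lignin and flavonoid precursors, had medians of 0.87 on WT2_1 and 1.04 on WT2_2 over 9 members, of which 0 were called and 3 were over 2-fold higher at an unadjusted P below 0.05. Phenylalanine ammonia-lyase Glyma.02G309300-1 had 5.34 and 6.10 at WT2 against 4.21 and 4.57 at WT1, where it was not well above background (adjusted P = 0.056).

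**Figure D4:**
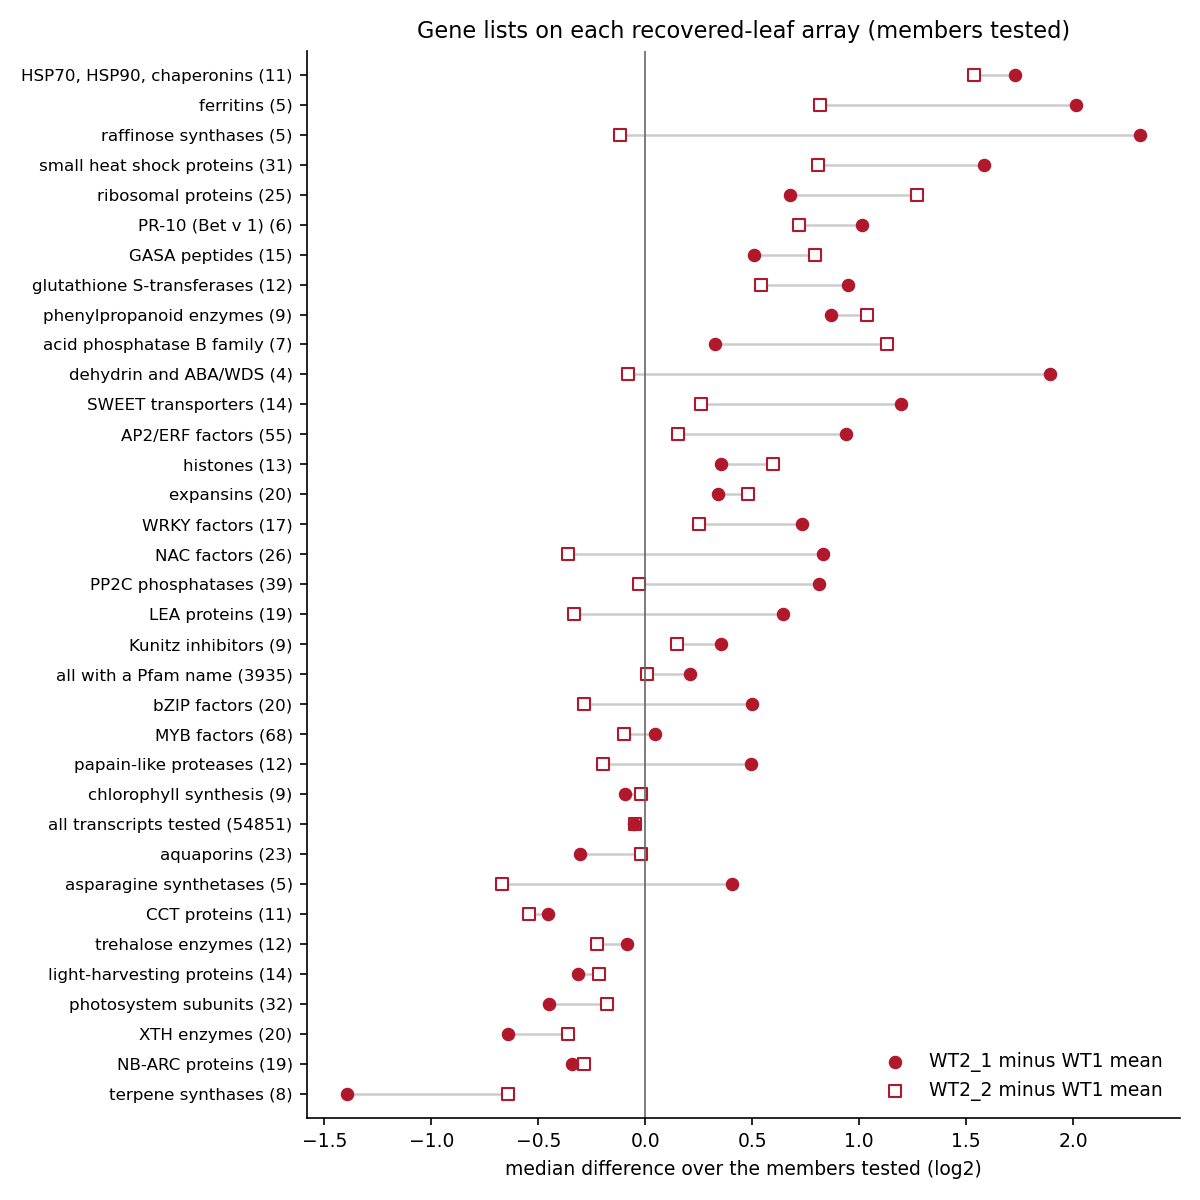
Median difference from the WT1 mean on WT2_1 (filled circles) and on WT2_2 (open squares), in log2 units, for gene lists with the number of members tested in brackets, ordered by the median of the mean difference. Raffinose synthases and dehydrins lie near 2 on WT2_1 and near 0 on WT2_2, whereas ribosomal proteins and chaperones lie above 0.6 on both arrays.

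Markers of other tissues were looked at because seed proteins are part of the drought program of leaves too. Of 29 oleosin, caleosin and cupin transcripts 0 were called and 4 had an unadjusted P below 0.05 with a rise over 2-fold. Of these 29, 27 had a probe well above background on at least 1 WT2 array and 13 on at least 1 WT1 array. On both arrays of a condition the counts were close, with 14 at WT2 and 12 at WT1. Their summed intensities were 89201 and 93681 at WT2 and 68662 and 84977 at WT1. The list had a median of 0.66 on WT2_1 and 0.23 on WT2_2. Oleosin Glyma.05G013800-1 had 8.16 on WT2_1 and 4.59 on WT2_2, against 4.13 and 4.23 at WT1, where it was not well above background. Of 4 pollen Ole e I transcripts 1 rose, Glyma.16G053200-1, with 12.19 and 12.73 at WT2 against 11.17 and 10.66 at WT1, and the list summed to 10461 and 14211 at WT2 and to 5759 and 4948 at WT1. The single root cap transcript had 5.86 and 4.71 at WT2 against 5.86 and 5.37 at WT1. The part of these tissues in the differences was not tested. By chromosome, the share called ranged from 2.12% on chromosome 9 to 3.31% on chromosome 8 for transcripts higher at WT2, and from 0.358% on chromosome 3 to 0.971% on chromosome 5 for those lower.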

How the data were processed

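Labelled RNA from WT2 and WT1 leaves (2 arrays each) was hybridised to single-colour Agilent arrays with up to 3 probes a transcript. The authors read the images with Feature Extraction 11.5.1.1, per the file headers, and corrected background and normalized the 8 arrays with limma, and the deposited transcript table holds 1 normalized intensity per transcript and array. Its background method, normalization and probe summary are not given in the sources used here. Per array, the deposited spot intensity and its call of being well above background come from the scanner files.

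Differences were computed on log2 of the deposited table. A transcript was tested when the 2 arrays of a condition both read at least 1 of its probes as well above background. The fit used lmFit and eBayes of limma 3.58.1 (R 4.3.3) over all 8 arrays with a mean per condition and the contrast WT2 minus WT1, and Benjamini-Hochberg adjustment over the 54851 tested. The DR1 and DR2 arrays added only to the estimate of the spread, and no slide term could be fitted. The script was tested on simulated data. With 2 arrays per condition the number of arrays limits the precision. P rests on a spread between arrays pooled over the 4 conditions, not on that of the WT2 and WT1 arrays alone. The median SD within a condition was lowest at DR1, at 0.092, beside 0.252 at WT2.

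The 24 transcripts with the largest changes are those called, over 2-fold on both WT2 arrays, 1 per locus, without unique-exon entries and read as well above background on each array of the higher condition. In each list, up to 4 called members with the largest change are named, or up to 2 where none was called. Any other transcript is outside these rules and was picked with its values known. The comparison, the lists and the rules were chosen with earlier results of these data known. A bound ("at least") sets the dimmer condition, on each array, at the higher of its own value and the lowest signal well above background. Pfam names and Arabidopsis counterparts come from the part of the study's supplementary annotation used here, 938 of the names from another transcript of the same locus, and organelle genes from RefSeq. The alternatives were array files with normexp and quantile normalization at offsets of 0 and 50, processed signal at a common 75th percentile, other filters, a pseudocount of 32, array weights, a variance trend, treat, fewer samples in the fit, a replicate block and leaving out each array. Columns of the authors' own comparisons were not used. Genome coordinates were not used, since the annotation at hand is of another build.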

Additional observations from a re-analysis of the deposited data

Results flagged for a closer look

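Probes for selection markers of transgenic plants, which soybean leaves should not bind, were read as well above background in some cases. The Bar probe Bar_1 was so on 5 of the 8 arrays, 1 of the WT2 and 2 of the WT1 arrays among them, with median signals of 87 and 65 units at WT2 and of 84 and 101 units at WT1. The kanamycin probe Knamycin_0 was so on 6 of the 8 arrays, also 1 of the WT2 and 2 of the WT1 arrays, with 70 and 78 units at WT2 and 71 and 78 units at WT1. The other 14 marker probes were not well above background on any of the 8 arrays.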

How the results depend on the processing

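For the counts over 2-fold (1483 higher, 382 lower at WT2), a common 75th percentile, normexp at either offset, filters on WT1 and WT2 alone, a variance trend, a pseudocount of 32 and dropping unique-exon entries stayed within 1.5 times of both. With no filter 236 were lower and with array weights 220 were. An unadjusted P gave 2817 higher and 1141 lower, a fit on the WT2 and WT1 arrays alone 941 and 201, one with the DR1 arrays added 770 lower, and one with the DR2 arrays added 98 and 10, or 94 and 10 over 4-fold. Over 4-fold (226 and 29), an offset of 50 gave 109 and 15, processed signal at the 75th percentile 431 and 49, and a pseudocount of 32 gave 131 and 16. Testing against a 2-fold change with treat left 1 higher and 0 lower at both folds, the 1 being Glyma.14G063800-1 (adjusted P = 0.0138), with 765 and 121 at an unadjusted P below 0.05. On both WT2 arrays over 2-fold (1783 and 574) were 1017 and 276 with the offset of 50, and 356 were lower with the pseudocount. The causes were not tested.

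Arrays with the same replicate number did not deviate together in every pair of conditions (correlations of -0.30 to 0.298), so the numbers were not taken to pair the arrays. A replicate block gave 905 higher and 140 lower calls, of which 1021 were among those without it, and 219 and 24 over 4-fold.

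Leaving out each array in turn gave 0 to 2127 higher and 0 to 770 lower calls over 2-fold and 0 to 400 and 0 to 56 over 4-fold. The 0 came from leaving out either WT1 array, which also gave 1833 and 2061 higher and 647 and 976 lower on both WT2 arrays, against 1783 and 574 with both. Of 128 single transcripts compared across settings 75 were called. Calls were lost by all 75 without either WT1 array, 61 without either DR1 array, 34 without WT2_1, 47 without WT2_2, 74 with treat, 28 with a replicate block and 61 with only the DR2 arrays added. The sign turned for 12, none of them called, when an array was left out. Over these fits Glyma.02G086500-1 ranged from -0.51 to 1.58, Glyma.04G009900-1 from -0.032 to 3.35, Glyma.04G145800-1 from -0.12 to 2.83, Glyma.06G307900-1 from -0.57 to 0.86, Glyma.08G048900-1 from -0.79 to 2.56 and Glyma.08G255400-1 from -0.037 to 1.35. Glyma.10G021100-1 ranged from -0.12 to 1.31, Glyma.10G071700-1 from -0.041 to 1.97, Glyma.11G038600-1 from -0.35 to 1.02, Glyma.11G038600-3 from -0.26 to 0.99, Glyma.12G068800-1 from -0.90 to 0.24 and Glyma.17G036300-1 from -0.37 to 2.06. No other setting turned the direction of a transcript. Of these 12, Glyma.02G086500-1, Glyma.04G009900-1, Glyma.04G145800-1, Glyma.08G255400-1 and Glyma.10G071700-1 were not well above background on either WT1 array, so their signs near 0 carry no direction. Of 53 list medians, 27 moved by 0.3 or more under some setting, 18 of them without WT2_1 and 19 without WT2_2. The sign of 11 medians turned without WT2_1, among them raffinose synthases, dehydrins, LEA proteins, NAC factors and protein phosphatases 2C, and that of 7 turned without WT2_2, asparagine synthetases among them. Without WT1_1 and without WT1_2 it turned for 3 and 4, and under other processing of the arrays or filters for at most 4, in each of which the main median lay between -0.02 and 0.14.

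With 2 arrays per condition, calls rest on a spread borrowed across transcripts. The lowest log2 signal well above background was 4.70 and 4.74 on the WT2 arrays and 4.95 and 4.86 on the WT1 arrays, and below it only bounds are known.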

Other observations

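Families outside the lists were looked through after their values were seen, so they carry no test as families, and their Pfam names come from the same selected annotation. Lipid transfer proteins, which carry lipids to the cell surface, had 3 rises among 16 members with an LTP_2 domain. Glyma.07G139400-1 had 13.10 and 12.67 at WT2 against 9.97 and 9.78 at WT1 (difference 3.01, SE 0.23, adjusted P = 0.00999), and Glyma.18G190000-1 had 13.24 and 12.96 against 10.30 and 10.14. BURP-domain proteins, a plant family that holds the drought-responsive RD22 of Arabidopsis, had 3 rises among 4, with Glyma.04G079600-1 at 14.30 and 13.21 at WT2 against 11.48 and 11.46 at WT1. Of 10 dehydrogenases with an adh_short_C2 domain 4 were called higher, with Glyma.18G156100-1 at 8.80 and 9.49 at WT2 against 7.48 and 7.53 at WT1. Among the 4, Glyma.19G197100-1 had 4.36 and 4.59 at WT2 and 3.23 and 3.04 at WT1. These values lie below the lowest signal well above background on each array, so no rise is set for it.

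Falls of the same kind were seen in T2 ribonucleases, which cut RNA, where 3 of 4 were lower. The 3 loci have neighbouring numbers on chromosome 2, and Glyma.02G064100-1 had 7.95 and 8.12 at WT2 against 9.31 and 9.26 at WT1. Of 3 glyoxal oxidases 2 fell, with Glyma.04G026400-1 at 7.83 and 8.05 at WT2 against 10.16 and 10.31 at WT1 (difference -2.30, SE 0.34, adjusted P = 0.021). One control sequence of the array that was well above background everywhere had processed signals of 1609 and 1573 units on the WT2 arrays and 2068 and 1632 units on the WT1 arrays.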
